A study of Mus musculus with 2 samples.

Results

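Krt7, Krt8, Krt18 and Krt19 encode the keratins of simple, single-layered epithelia, and their mRNA was followed here through the developing hair follicle (HF), whose cells are built on other keratins. The 4 genes were taken by symbol from the 32285 listed genes. They were selected on their measured levels and joint detection across the epithelial cells of both libraries, the cells with Acta2 and Tagln included, so all levels across cell groups are given as a description and without a test. Keratins are obligate pairs, in which a type II keratin such as Krt7 or Krt8 assembles with a type I keratin such as Krt18 or Krt19 into intermediate filaments. Krt8 and Krt18 are the founding pair of the embryo and of internal epithelia, whereas basal keratinocytes replace them with Krt5 and Krt14. In skin, Krt8, Krt18 and Krt20 mark Merkel cells, Krt19 is known from outer root sheath and bulge cells, and Krt7 is known from ducts and glands.

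Back skin of mice at postnatal day 1 (P1) was freed of epidermis, and tdTomato-positive, living cells were sorted from the dermal fraction that holds the growing HFs. The reporter is switched on by Cre under the K14 promoter, which is active in keratinocytes and their descendants, so a cell is included for its lineage and not for its present keratins. A library with genotype WT and a library with genotype PADI4 cKO, in which Cre deletes a floxed Padi4 gene (Padi4 fl/fl), were made, both labelled batch 1. The protocol text common to both names K14-Cre Padi4 fl/fl mice, and how many animals a library holds was not given in the sources used here. With 1 library per genotype no test between genotypes was possible, and intervals (95%, exact) cover counting error only. Padi4 did not set the libraries apart, with 98 UMIs in the epithelial cells of the library labelled PADI4 WT and 92 in that labelled PADI4 cKO, although a 3′ tag outside the deleted part of a gene checks nothing. Values are given below for the library labelled PADI4 WT first and that labelled PADI4 cKO second.

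Totals of 143938990 and 143945294 unique molecular identifiers (UMIs, each marking 1 captured mRNA molecule) were deposited, and 8070 and 7393 cells were kept, with medians of 14670 and 16208 UMIs. Of these, 7996 and 7357 cells fell in epithelial clusters. Groups were compared where each library gave at least 50 cells, which held for 20, and are named by their 2 leading genes and, where HF marker lists allowed, as outer root sheath (ORS), lower proximal cup (LPC), germinative layer (GL), inner root sheath (IRS), cortex (Cx), upper HF (uHF) or sebaceous gland (SG)-like. The 4 genes and the contractile genes, Acta2 and Tagln among them, were not used for clustering. Levels are given as CPM, the UMIs of a gene per 1000000 UMIs of a group. As 3′ tags count molecules, levels of different genes on this scale do not depend on gene length. The libraries shared 17 barcodes with at least 2000 UMIs, which left 14 kept cells in doubt, and no value listed under the alternatives moved beyond its interval without them.

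Krt7, Krt8 and Krt18 lie in the type II keratin cluster of mouse chromosome 15 and Krt19 in the type I cluster of chromosome 11. By the GENCODE annotation of GRCm38, Krt7 spans chr15:101411043-101430313 on the plus strand in 9 exons, and Krt8 spans chr15:101996698-102004482 on the minus strand in 9 exons. Krt18, the only type I gene among the type II genes, spans chr15:102028180-102032027 on the plus strand in 7 exons. Krt19 spans chr11:100140810-100148665 on the minus strand in 6 exons. In GENCODE the start sites of Krt8 and Krt18 lie 23.7 kb apart and point away from each other. Because Krt8 and Krt18 are the classical pair and their levels diverged between groups below, and Krt7 was highest in another group, the promoters of these 3 genes are shown. They were taken from RefSeq (GRCm38.p6), run 5′ to 3′ on the gene's strand from 250 bases before to 50 bases after the RefSeq start, and lie at chr15:101412153-101412452 (plus), chr15:102004293-102004592 (minus) and chr15:102027966-102028265 (plus) in this order. The RefSeq starts differ from the GENCODE starts of the spans above, and the Krt7 window lies wholly inside the GENCODE span of Krt7. Capitals mark matches, on either strand, of the TATA box (TATAAA), the CCAAT box, the GC box (GGGCGG), the AP-1 site (TGAGTCA) or the CArG box.
Krt7: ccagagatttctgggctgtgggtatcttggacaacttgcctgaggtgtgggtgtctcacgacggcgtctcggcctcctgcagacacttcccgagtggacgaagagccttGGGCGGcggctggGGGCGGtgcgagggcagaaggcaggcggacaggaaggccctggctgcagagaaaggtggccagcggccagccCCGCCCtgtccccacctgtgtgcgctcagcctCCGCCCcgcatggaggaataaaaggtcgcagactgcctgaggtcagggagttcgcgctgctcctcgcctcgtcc
Krt8: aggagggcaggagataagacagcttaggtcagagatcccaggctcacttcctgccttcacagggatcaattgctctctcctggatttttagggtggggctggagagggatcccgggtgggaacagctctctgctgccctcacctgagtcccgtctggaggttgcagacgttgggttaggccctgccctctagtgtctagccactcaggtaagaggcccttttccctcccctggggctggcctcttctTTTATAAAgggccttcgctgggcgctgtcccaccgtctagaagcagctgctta
Krt18: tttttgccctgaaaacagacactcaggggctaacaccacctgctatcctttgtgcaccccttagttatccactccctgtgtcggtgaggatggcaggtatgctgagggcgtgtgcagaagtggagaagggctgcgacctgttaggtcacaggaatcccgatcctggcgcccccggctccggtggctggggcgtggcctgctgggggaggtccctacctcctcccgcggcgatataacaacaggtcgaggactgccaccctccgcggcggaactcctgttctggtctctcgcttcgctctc

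The Krt7 promoter held 4 matches of GGGCGG, the GC box, which 35.7% of 32851 RefSeq promoters of the same length hold at least once. The Krt8 promoter held 2 overlapping matches of TATAAA, found in 13.6% of promoters, and none of the GC box. These matches lie on opposite strands and begin at −3 and −1, so at the RefSeq start itself, and whether they act as a TATA box was not tested. In the Krt18 promoter none of the capitalised motifs was found. GGAA, the core of ETS factor sites, matched 3 times in Krt7, 3 times in Krt8 and 2 times in Krt18, and 96.0% of all promoters hold it. CANNTG, the E box, matched 1, 3 and 1 times against a share of 72.3%. The CArG box, through which serum response factor acts on Acta2 and Tagln, matched in none of the 3 windows and in 1.63% of all promoters. The letters of the CCAAT box and of the AP-1 site, found in 37.4% and 5.20% of promoters, were also not in these windows.

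All 4 genes were minor keratins of these cells. Krt18 and Krt19 together gave 0.167% and 0.178% of the type I keratin UMIs, which came mostly from Krt17, Krt14 and Krt15. Krt7 and Krt8 gave 0.826% and 0.716% of the type II UMIs, most of which were Krt5. Krt7 was the most abundant of the 4 over all epithelial cells, with 1295 and 1000 UMIs (10.2 and 7.72 CPM), followed by Krt19 with 806 and 729 (6.33 and 5.63 CPM) and Krt8 with 565 and 398 (4.44 and 3.07 CPM). Krt18 had 171 and 179 UMIs (1.34 and 1.38 CPM), so that this type I partner was outnumbered by Krt8 by 3.30 (2.78 to 3.94) and 2.22 (1.86 to 2.67) UMIs to 1.

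A UMI of Krt7 was found in 10.2% and 9.34% of epithelial cells, of Krt8 in 3.55% and 2.66%, of Krt18 in 1.10% and 1.36% and of Krt19 in 5.04% and 5.07%. In cells thinned to 2000 UMIs these shares were 2.10% and 1.85% for Krt7, 0.925% and 0.748% for Krt8, 0.288% and 0.245% for Krt18, and 1.08% and 1.01% for Krt19. Melanocyte-like cells, which should lack simple keratins, gave the background. In the first library 1 of 26 such cells, 3.85% (0.0973 to 19.6), held a Krt7 UMI and 1 a Krt18 UMI, none held Krt8 or Krt19, and their median depth was 7645 UMIs against 14687.5 in epithelial cells. In the second library 0 of 10 held any, which allows up to 30% of such cells. With so few such cells the background was not measured closely, and the shares of all 4 genes over all epithelial cells lay within the range it allows.

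Droplets with at most 100 UMIs, which sample free RNA, held 5.74 and 5.06 CPM of Krt18, above its level in the epithelial cells. Free RNA made up at most 7.89% and 6.73% of the UMIs of a cell, and on this estimate at most 33.7% and 24.6% of the epithelial Krt18 UMIs could have come from it. For Krt8 this limit was 11.1% and 14.5%, for Krt19 10.4% and 8.37% and for Krt7 8.52% and 7.23%.

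Krt7, the type II keratin of ducts, was highest in the uHF-like (Smoc1, Crabp2) cells, at 84.9 CPM (63.4 to 111, 65 cells) and 64.0 CPM (48.5 to 82.9, 83 cells). The ORS-like (Spon1, Grm7) cells followed with 66.0 CPM (54.5 to 79.3) and 43.4 CPM (30.7 to 59.5), and the intervals of these groups overlapped in both libraries. Both lay above the unnamed (Ly6d, Gm13481) cells at 28.8 and 20.2 CPM, which overlapped with the unnamed (Tagln, Olfml2b) cells at 22.0 and 21.4 CPM and, through these, with the ORS-like (Pi15, Cps1) cells at 19.01 and 20.7 CPM. Krt7 was the broadest of the 4 genes, as only 9 of the 20 groups stayed under 5 CPM in both libraries against 16 for each of the other genes. It was lowest in the SG-like (Cyp2g1, Far2) cells, with 0 UMIs, and in the Cx-like (Dsg4, Krt35) cells, at 0.353 and 0 CPM.

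Krt8, the type II partner of Krt18, was concentrated in few cells. The ORS-like (Spon1, Grm7) cells held 112.5 CPM (97.3 to 129) and 90.2 CPM (71.4 to 112), with 196 UMIs in 119 cells and 79 UMIs in 56 cells. They contributed 34.7% and 19.8% of all epithelial Krt8 UMIs while making up 1.49% and 0.761% of the cells. A UMI of Krt8 was found in 67.2% and 53.6% of them, and in 18.5% and 21.4% after thinning. The ORS-like (Ebf1, Galntl6) cells followed at 31.04 CPM (24.9 to 38.2) and 25.9 CPM (20.2 to 32.7), and overlapped with the unnamed (Tagln, Olfml2b) cells at 21.1 CPM (16.3 to 26.9) and 24.8 CPM (19.7 to 30.9). The Ebf1 group was shallow, with medians of 7749.5 and 8785 UMIs, and the fibroblast genes Col1a1 and Col1a2 were among its raised markers, whose part in its Krt8 level was not tested. The uHF-like cells, where Krt7 peaked, held 0 Krt8 UMIs in 65 and in 83 cells, so that up to 4.62% and 3.61% of such cells could still have a UMI.

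Krt18, the type I partner of Krt8, had few UMIs in the Spon1 group. There it had 3 UMIs in the first library (1.72 CPM, 0.355 to 5.03) and 6 in the second (6.85 CPM, 2.51 to 14.9), so that Krt8 outnumbered it by 65.3 (22.0 to 320) and 13.2 (5.79 to 37.0) to 1. The level of Krt18 was highest in the unnamed (Tagln, Olfml2b) cells, at 14.6 CPM (10.6 to 19.5) and 9.32 CPM (6.29 to 13.3), where 11.8% and 10.7% of cells held a UMI and where Krt8 outnumbered it by 1.44 (0.973 to 2.16) and 2.67 (1.73 to 4.20) to 1. In the second library the Krt18 interval of the Spon1 group overlapped with that of the Tagln group. The Ebf1 group held 4.53 CPM (2.41 to 7.75) and 8.39 CPM (5.32 to 12.6), overlapping with the Tagln group in the second library only.

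The GL-like (Dlx4, Dcn) cells ranked next to the Tagln group for Krt18, at 7.52 and 8.11 CPM, but this level came from 1 cell in each library. That cell held 52 of the 171 epithelial Krt18 UMIs (30.4%) in the first library and 58 of 179 (32.4%) in the second, and without it the group fell to 0.412 and 0.400 CPM. The same cells held 33 and 24 UMIs of Krt8, 13 and 8 of Krt7, 13 and 12 of Krt19 and 33 and 32 of Epcam, an adhesion molecule of simple epithelia. They held 13 and 8 UMIs of Cldn3, a tight junction protein, and none of Krt5, Krt14, Acta2 or Tagln. Their totals were 21250 and 17830 UMIs, and their doublet scores ranked at the 90.8th and 78.9th percentile of their libraries. Leaving them out set Krt18 over all epithelial cells at 0.935 and 0.935 CPM.

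Krt19, the smallest keratin and a type I partner of Krt8 and Krt7, was highest in the unnamed (Tagln, Olfml2b) cells, at 112.5 CPM (101 to 125) and 118.3 CPM (107 to 131). With 347 and 381 UMIs, these cells held 43.1% and 52.3% of all epithelial Krt19 UMIs and were 2.54% and 2.41% of the cells. A UMI of Krt19 was found in 59.1% and 66.7% of them, and in 15.8% and 24.3% after thinning. The Spon1 group came next at 52.2 CPM (42.1 to 64.1) and 37.7 CPM (25.9 to 52.9), below the Tagln group and above all other groups. The LPC-like (Phactr1, Slit3) cells at 11.4 and 12.7 CPM and the Pi15 group at 10.3 and 6.96 CPM followed, and all other groups stayed under 5 CPM. In the Ebf1 group, where Krt8 was second highest, Krt19 had only 2 and 5 UMIs.

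**Figure D1:**
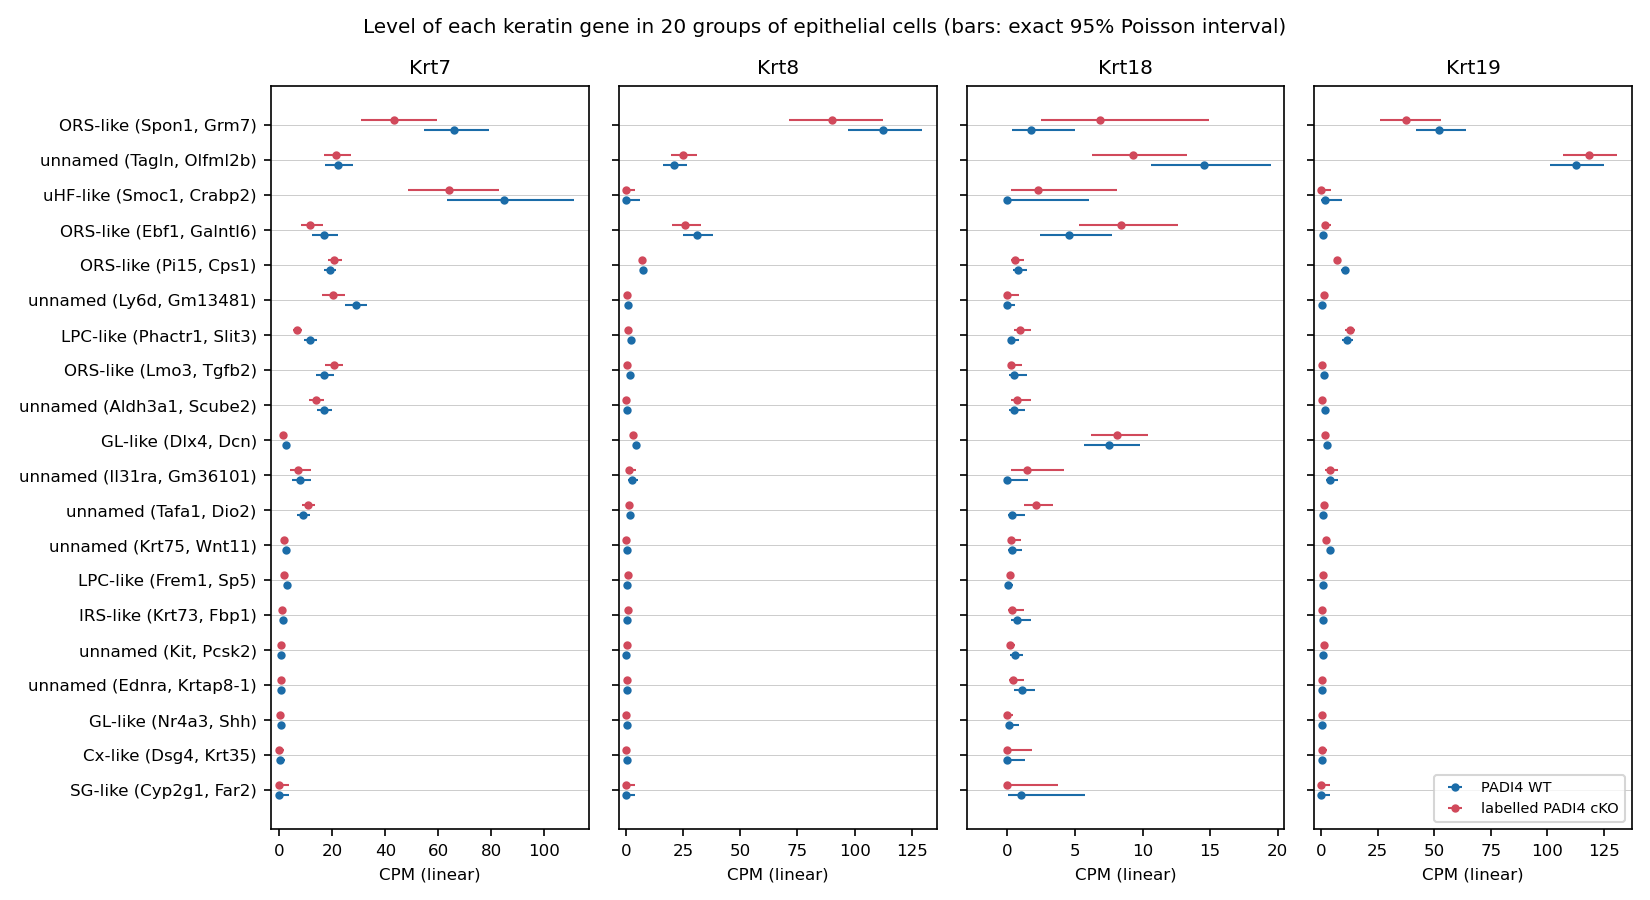
Level of Krt7, Krt8, Krt18 and Krt19 (CPM, linear, a separate scale in each panel) in 20 groups of epithelial cells, with points for the libraries labelled PADI4 WT (blue) and PADI4 cKO (red) and bars for exact 95% Poisson intervals. Krt7 is highest in the uHF-like cells (84.9 and 64.0 CPM), Krt8 in the ORS-like (Spon1, Grm7) cells (112.5 and 90.2) and Krt18 and Krt19 in the unnamed (Tagln, Olfml2b) cells (14.6 and 9.32, 112.5 and 118.3).

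These 4 groups carried different sets of the 4 genes. The uHF-like cells held Krt7 with at most 2 UMIs of any other member in a library. The Spon1 group held Krt7, Krt8 and Krt19 with few Krt18 UMIs, the Ebf1 group Krt7, Krt8 and fewer Krt18 UMIs with almost no Krt19, and the Tagln group all 4. Against all other epithelial cells, Krt8 was 5.26 (5.00 to 5.51) and 5.19 (4.81 to 5.54) higher in the Spon1 group on the log2 scale, Krt19 3.20 and 2.82, and Krt7 2.82 and 2.55. Krt18 was 0.58 (−1.93 to 1.94) and 2.46 (0.88 to 3.50) higher there. Of 14906 genes with at least 100 UMIs, 5.79% were higher by more than 1 and 6.21% lower by more than 1 in the Spon1 group in both libraries, and 3 of the 4 members were among the higher ones. Of 12 contractile genes compared, 8 were higher there, such as Myl9 and Tpm1, and Cnn1 was lower. In the uHF-like cells Krt7 was 3.13 and 3.14 higher, where 7.94% of all genes were higher and 9.41% lower, and of the 12 contractile genes Cnn2 and Mylk were higher and 4, Acta2, Tagln, Cnn1 and Tpm1, were lower. Krt17, a stress and ORS keratin, was 1.39 and 1.69 higher in the Spon1 group and 1.87 and 1.77 higher in the uHF-like cells, and Krt15, a bulge keratin, was 1.38 and 1.49 higher in the Spon1 group and stood at 0.31 and 0.24 in the uHF-like cells.

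The order of the groups rests on how finely cells were clustered. With coarser clustering (resolution 0.5) the highest levels, averaged over the libraries, fell from 74.5 to 24.2 CPM for Krt7, from 101.3 to 26.8 for Krt8, from 12.0 to 7.02 for Krt18 and from 115.4 to 34.9 for Krt19. Krt8 and Krt18 were then both highest in an ORS-like (Ebf1, Pdlim3) group, Krt7 in an ORS-like (Pi15, Spon1) group and Krt19 in an LPC-like (Tagln, Olfml2b) group. With finer clustering (resolution 2) the highest levels were 50.3, 77.5, 6.23 and 73.9 CPM, in groups led by Smoc1, Spon1, Tagln and Tagln. The Tagln group then had 374 and 288 cells, against 203 and 177 at resolution 1.

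Across the 40 pairs of group and library, Krt8 levels on the log2(CPM + 1) scale correlated with those of Krt19 at Pearson's r of 0.74 and with those of Krt18 at 0.71, Krt18 with Krt19 at 0.56, and Krt7 with Krt8, Krt19 and Krt18 at 0.51, 0.48 and 0.29. The 20 groups of a library share its depth and free RNA, and each group stands in both libraries, so the points are not independent. Krt7 correlated with the basal keratins Krt5 and Krt15 at 0.86 each. Krt19 went with Tagln at 0.93 and Acta2 at 0.90, genes of the actin cytoskeleton of contractile cells, while Krt8 reached 0.63 and 0.57 with them and Krt18 0.43 and 0.44.

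The genes with the profile most like a member, among 12088 genes with at least 500 UMIs, were Farp1, March3, B930095G15Rik, P3h1 and Ifitm3 for Krt7 (r from 0.91 to 0.93). For Krt8 they were Slc35f1, Grm7, Fndc1, Wipf1 and Gm2a (0.87 to 0.89), and for Krt19 Fbln7, Cfap299, Tpm1, Olfml2b and Anxa3 (0.93 to 0.94). Krt18 had weaker matches in Meg3, Vps28, Vps26c, Wipf1 and Igfbp3 (0.67 to 0.69). By rank correlation only 2 of the 5 genes were the same for Krt7, 2 for Krt18 and 0 for Krt8 and Krt19.

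Cells with at least 2 UMIs of Acta2, smooth muscle actin, and at least 2 of Tagln, the actin-binding transgelin, numbered 178 and 97, with median depths of 16281 and 18876 UMIs. All 4 genes were higher in these cells than in all other epithelial cells. Krt19 was at 81.6 CPM (71.9 to 92.2) and 83.4 CPM (71.5 to 96.8) in them and at 4.43 and 4.35 CPM elsewhere, a log2 difference of 4.20 (3.98 to 4.42) and 4.26 (4.01 to 4.51). A Krt19 UMI was found in 56.2% and 68.0% of the cells, and in 10.1% and 22.7% after thinning.

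The differences of the other 3 genes were smaller. Krt18 was at 8.92 and 8.58 CPM in the Acta2 and Tagln cells and at 1.15 and 1.26 CPM elsewhere, a log2 difference of 2.97 (2.31 to 3.55) and 2.80 (1.97 to 3.47). Krt8 was at 17.8 and 17.2 CPM against 4.10 and 2.84, a difference of 2.13 (1.70 to 2.52) and 2.61 (2.06 to 3.09). Krt7 was at 25.2 and 23.4 CPM against 9.79 and 7.47, a difference of 1.37 (1.01 to 1.69) and 1.66 (1.20 to 2.06). All 4 members thus lay more than 1 higher in both libraries, where 5.85% of 14906 genes did and 6.77% were lower, but the cells were named in choosing the genes and nothing is read from this count. Without the 2 cells rich in Krt18 of the GL-like group, the mean difference of Krt18 grew from 2.89 to 3.53.

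**Figure D2:**
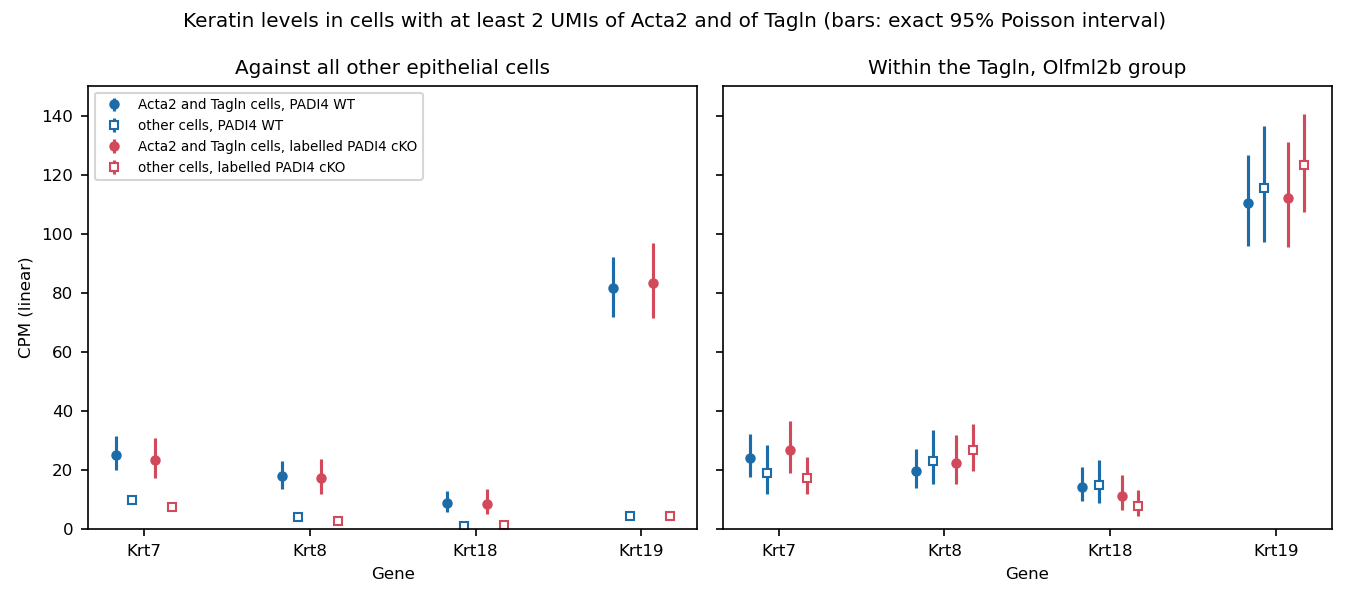
Level of the 4 genes (CPM, linear) in cells with at least 2 UMIs of Acta2 and of Tagln (filled) and in other cells (open), against all other epithelial cells on the left and within the unnamed (Tagln, Olfml2b) group on the right, with exact 95% Poisson intervals. Krt19 stands at 81.6 and 83.4 CPM against 4.43 and 4.35 on the left, while within the group filled and open points overlap for every gene.

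Most of these cells were of 1 group, as 117 of 178 and 74 of 97 belonged to the Tagln group and 37 and 17 to the LPC-like (Phactr1, Slit3) group. Within the Tagln group, cells with at least 2 UMIs of each of Acta2 and Tagln and the other cells did not differ beyond their intervals. These other cells were not free of Tagln. The group held 9574 and 8864 Tagln UMIs, more than the 8837 and 6568 of all Acta2 and Tagln cells. The levels were therefore not compared with cells that lack the contractile genes. Krt19 was at 110.5 CPM in the Acta2 and Tagln cells and 115.5 CPM in the others of the first library, and at 112.2 and 123.2 CPM in the second. Krt8 was at 19.8 against 23.1 and 22.4 against 26.8 CPM, Krt18 at 14.4 against 14.9 and 11.2 against 7.80 CPM, and Krt7 at 24.0 against 18.98 and 26.7 against 17.3 CPM. In the LPC-like (Phactr1, Slit3) cells, Krt19 was at 28.0 CPM (17.7 to 41.9) in the Acta2 and Tagln cells against 9.54 (7.44 to 12.1) in the first library and at 22.4 (11.2 to 40.0) against 12.2 (10.2 to 14.6) in the second, where the intervals overlapped. Krt8 was there at 9.72 (4.20 to 19.2) against 1.23 (0.561 to 2.33) and at 4.07 (0.492 to 14.7) against 0.702 (0.282 to 1.45). In the 16 and 4 such cells of the Pi15 group, Krt19 was at 65.5 CPM (39.4 to 102) against 9.07 (7.52 to 10.8) and at 29.6 (6.11 to 86.6) against 6.76 (5.34 to 8.44). Krt7 was at 34.5 (16.5 to 63.4) against 18.7 (16.4 to 21.1) and at 69.2 (27.8 to 142) against 20.3 (17.8 to 23.1). The 5 such cells of the Spon1 group in the first library went the other way, with Krt8 at 61.5 CPM (20.0 to 143) against 115.0 (99.3 to 133). Compared with other cells of the same groups, the mean log2 difference was −0.09 for Krt19, −0.18 for Krt8, 0.20 for Krt18 and 0.55 for Krt7, against 4.23, 2.37, 2.89 and 1.51 over all epithelial cells. Groups counted here by their number of Acta2 and Tagln cells, so these means mostly describe the Tagln group.

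Detection of Krt19 went up with the amount of Tagln. In cells thinned to 2000 UMIs, Krt19 was found in 0.584% (0.425 to 0.783) of 7533 cells with no Tagln UMI and in 13.1% (8.17 to 19.5) of 153 cells with 5 or more in the first library, and in 0.399% (0.265 to 0.576) of 7017 and 20.7% (13.8 to 29.0) of 121 in the second. Krt7 went from 1.89% to 5.88% and from 1.71% to 6.61%. Krt8 was most often found at 2 to 4 Tagln UMIs, in 4.20% and 7.34% of cells, and in 1.96% and 4.96% at 5 or more. The shares of Krt18, 1.96% and 1.65% at 5 or more against 0.212% and 0.200% at none, rested on 3 and 2 cells.

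**Figure D3:**
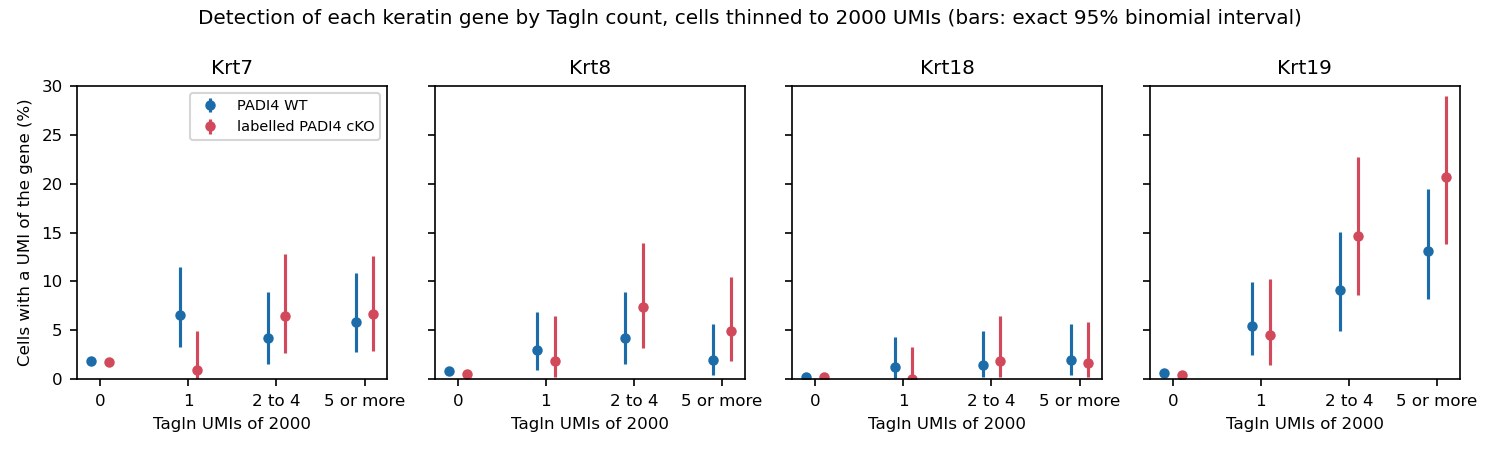
Share of cells (%) with a UMI of each gene by the number of Tagln UMIs among 2000, for the libraries labelled PADI4 WT (blue) and PADI4 cKO (red), with exact 95% binomial intervals. Krt19 goes from 0.584% to 13.1% and from 0.399% to 20.7%, and from 1 Tagln UMI on the bars of neighbouring bins overlap for each of the 4 keratin genes.

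Of the contractile genes, 11 of the 12 that could be compared were higher in the Acta2 and Tagln cells by more than 1 in both libraries, with a median log2 difference of 3.02 against −0.09 over all genes. Acta2 and Tagln are in this list and chose the cells. Tpm1, a tropomyosin, was at 1961 and 1797 CPM against 166 and 147, Myl9, a myosin light chain, at 674 and 661 against 28.7 and 30.7, and Cnn1, calponin, at 49.1 and 61.0 against 1.51 and 1.73. Of 18 type I keratins compared, members included, Krt15, Krt18 and Krt19 were higher and 5 lower, and of 14 type II keratins Krt7 and Krt8 were higher and 7 lower, Krt79 of the uHF among them. Krt5 stayed at 1214 and 1235 CPM against 1398 and 1247, so the basal type II keratin was still the main one.

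Few other genes of simple epithelia were higher in these cells. Of 11 compared, only Cldn3 was higher (4.78 and 9.54 CPM against 0.620 and 0.243) and Cldn4, Cldn7 and Ehf were among the lower ones. Epcam was at 122 and 72.0 CPM against 215 and 172. Of 16 genes for proteins that bind keratin filaments, Hspb1, a small heat shock protein, was higher (546 and 654 CPM against 138 and 138) and Ppl and Pkp1, of the cornified envelope and the desmosome, were lower. Of 15 transcription factors tied to simple keratin promoters, Ets1 and Ets2 were higher and Klf4, Klf5 and Fosl1 lower.

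Other cell types carry Acta2 and Tagln, and their markers were measured in the same cells. Of the 7 pericyte and smooth muscle markers, Rgs5 and Pdgfrb were at 0 UMIs in the Acta2 and Tagln cells of both libraries. Cspg4 was higher and Notch3 lower, and the list summed to 182 and 192 CPM against 53.6 and 52.6. Des, Myh11 and Actg2, genes of smooth muscle, were detected in these cells but had too few UMIs to be compared. Actg2 was, with Cspg4, among the raised markers of the Tagln group. The fibroblast list summed to 78.4 and 117 CPM against 711 and 739, Lum and Pdgfra were at 0, and Col1a1 stood at 1.59 and 2.86 CPM against 0.862 and 1.20. Of 4 fibroblast genes compared, Dcn and Lum were lower and none was higher by more than 1. Dcn is also a leading gene of the epithelial GL-like (Dlx4, Dcn) group, so the sum does not measure fibroblast RNA alone. Without cells holding a UMI of Col1a1, Col1a2 or Col3a1 the difference of each of the 4 genes stayed within its interval. The melanocyte, endothelial, immune and Schwann lists summed to at most 15.6 CPM in these cells, with Tyr, Cdh5, Kdr, Ptprc and Sox10 at 0, and the periderm list, of which 4 of 9 genes were at 0, to 822 and 854 CPM against 482 and 472. Of 5 periderm genes compared, however, none was higher by more than 1 and Grhl3 and Ppl were lower. Their median log2 difference was −1.08, against −0.09 over all genes. Of the dermal papilla list, which summed to 10.5 and 15.7 CPM against 47.0 and 49.1, Alpl and Crabp1 were at 0.

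Merkel cells, the skin cells in which Krt8 and Krt18 are best known, were not found as a cluster. Atoh1, their defining transcription factor, Krt20 and Isl1 had 0 UMIs in the epithelial cells of the first library and 1, 2 and 2 UMIs in the second. Cells with at least 2 of 10 Merkel genes numbered 7 and 5, of which 0 and 1 held Krt8 or Krt18. In the Acta2 and Tagln cells 7 of the 10 genes were at 0, and the list summed to 7.01 and 3.81 CPM against 7.03 and 8.80 CPM in the other cells.

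Few single cells held UMIs of both Krt8 and Krt18. Of 284 and 196 epithelial cells with Krt8, 19 and 19 also held Krt18, which is 6.69% and 9.69% of the Krt8 cells and 21.6% and 19% of the 88 and 100 Krt18 cells. In cells thinned to 2000 UMIs, 5 cells of both libraries together held both, where 0.347 would be met if the genes were detected independently, a ratio of 14.4 (4.67 to 33.6). Summed within groups the expected number was 1.16 and the ratio 4.31 (1.40 to 10.1), and without the 2 cells rich in Krt18, 3 cells remained and the ratio was 9.21. With so few cells these ratios are a description only.

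Of the Krt8 cells, 77 and 55 also held Krt19, its other type I partner. After thinning, 8 and 5 cells held both, where 4.40 and 3.50 were expected within groups. The shares that follow are without thinning, so depth also adds to them. In the Tagln group 24 of 28 and 29 of 33 Krt8 cells (85.7% and 87.9%) also held Krt19, and 20 of 24 and 15 of 19 Krt18 cells did, while 59.1% and 66.7% of all cells of the group held it. In the Spon1 group 30 of 80 and 12 of 30 Krt8 cells held Krt19 (37.5% and 40%), near its share of 36.1% and 35.7% in the group, and 35 and 14 held Krt7 (43.8% and 46.7%), against 50.4% and 39.3%. Of cells with both Krt8 and Krt18, 11 and 8 of 19 held Krt19 and 4 and 3 held all 4 genes.

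**Figure D4:**
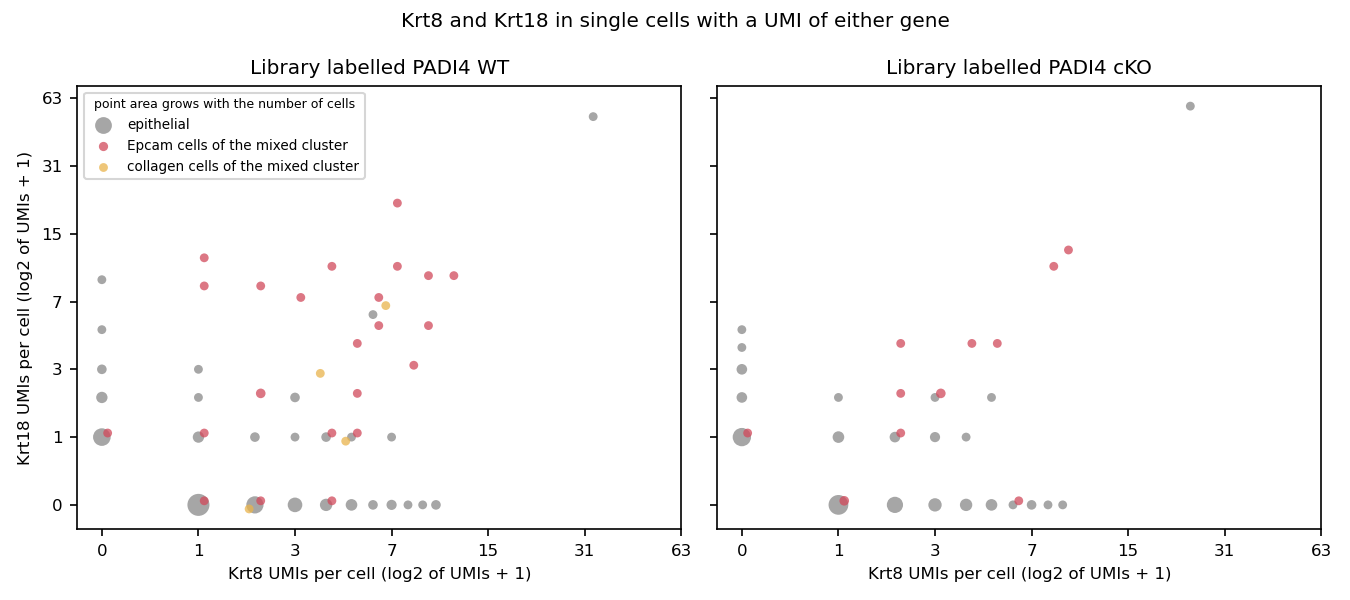
UMIs of Krt8 (x) and Krt18 (y) per cell, on log2(UMIs + 1) axes, for cells with a UMI of either gene in the libraries labelled PADI4 WT (left) and PADI4 cKO (right), with point area growing with the number of cells. Most epithelial cells (grey) lie along the axes, and 19 and 19 of them hold both genes, among them 1 cell in each library with 33 and 24 Krt8 and 52 and 58 Krt18 UMIs, while 20 of 24 and 9 of 13 Epcam cells of a mixed cluster (red) hold both.

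A cluster of 48 and 26 cells was kept out of the epithelial cells because fibroblast and smooth muscle markers led it. After its values had been seen, cells with a UMI of Epcam and fewer than 2 collagen UMIs (24 and 13) and cells with at least 2 collagen UMIs (24 and 11) were taken from it. The remaining cells of the second library met neither rule and were in neither part. At least 3 UMIs of both Krt8 and Krt18 were held by 11 of 24 and 4 of 13 of the Epcam cells, and by 2 of 7996 and 1 of 7357 epithelial cells. Against all epithelial cells, Krt8, Krt18 and Krt19 were higher by more than 1 in the Epcam cells of both libraries, as were 6.85% of 14944 genes, while 4.46% were lower.

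Between the libraries, Krt8 differed most and Krt18 least of the 4 members over all epithelial cells. Over all epithelial cells the log2 ratio, the library labelled PADI4 cKO over that labelled PADI4 WT, was −0.40 (−0.52 to −0.28) for Krt7, −0.53 (−0.72 to −0.34) for Krt8, 0.04 (−0.27 to 0.35) for Krt18 and −0.17 (−0.32 to −0.02) for Krt19, with a median of −0.01 over all genes. Krt8 was the 1 member below −0.5, as were 3.59% of all genes, and none of the 4 was above 0.5, as were 1.58%. The libraries differed in more than their label: 26.0% and 98.3% of the epithelial cells held Xist but no Y-linked transcript, and in such cells alone the ratio was −0.96 for Krt8 and −0.52 for Krt19. Genotype and library cannot be told apart.

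The Spon1 group, where Krt8 was highest, had 119 cells in the first library and 56 in the second, and within it the Krt8 ratio was −0.31 (−0.72 to 0.06). The part of this share in the ratio over all cells was not tested. In the 4 groups with at least 100 Krt8 UMIs the ratios ran from −0.31 to 0.24, and every interval held 0. Over all 20 groups the Krt8 ratio was negative in 15, their mean with equal weights was −0.46, and the intervals of 3 groups with fewer UMIs excluded 0, 1 of them with a higher level in the second library. This count and mean include the uHF-like (−0.54) and SG-like (−0.02) groups, which held 0 Krt8 UMIs in both libraries. Their ratios came only from the added 0.5 UMI and the depths. The unnamed (Krt75, Wnt11) group, at −3.29, had 5 and 0 UMIs. No general decrease of Krt8 is read from the count or the mean. For Krt7, 9 groups had 100 UMIs, with ratios from −0.82 to 0.28, and 3 of them were below −0.5. These were the LPC-like (Phactr1, Slit3), the Spon1 and the unnamed (Ly6d, Gm13481) group, with −0.82 (−1.29 to −0.36), −0.59 (−1.18 to −0.07) and −0.51 (−0.90 to −0.14), where 2.3%, 4.73% and 5.38% of all genes were below −0.5.

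Krt19 had 4 such groups, of which the Pi15 group was below −0.5, at −0.56 (−0.98 to −0.16) with a background of 2.79%, and the Tagln group stood at 0.07 (−0.14 to 0.29). Krt18 reached 100 UMIs only in the GL-like (Dlx4, Dcn) group, through the single cells described above. Within the Acta2 and Tagln cells the ratios of Krt7, Krt8, Krt18 and Krt19 were −0.10, −0.05, −0.04 and 0.03, and all intervals held 0. Acta2 itself was lower over all epithelial cells, at −0.90 (−0.998 to −0.81), and Tagln at −0.16 (−0.20 to −0.13).

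**Figure D5:**
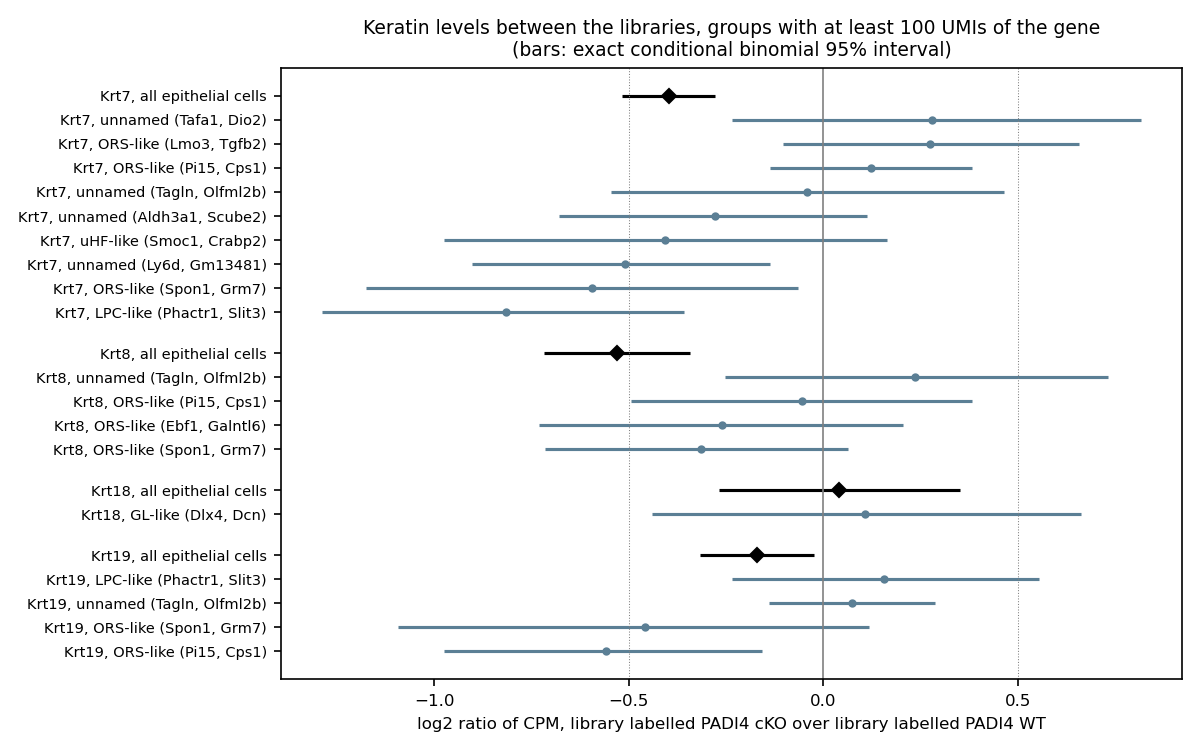
Log2 of the CPM labelled PADI4 cKO divided by the CPM labelled PADI4 WT for each gene over all epithelial cells (black diamonds) and in groups with at least 100 UMIs of it (blue points), with exact conditional binomial 95% intervals and dotted lines at −0.5 and 0.5. Over all cells Krt8 stands at −0.53 and Krt18 at 0.04, while the 4 groups of Krt8 run from −0.31 to 0.24.

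Of the other keratins over all epithelial cells, Krt26, an IRS keratin, was the 1 type I gene of 18 above 0.5 and 7 were below −0.5, and of 14 type II genes none was above and 5 below, Krt8 among them. Of all genes, 1.58% were above 0.5 and 3.59% below −0.5. The median ratios of these lists were −0.25 and −0.36, against −0.01 over all genes. The unnamed (Krt1, Stfa1) cells, 185 and 7, had Krt1 and Krt10 among their raised markers. Krt6a and Krt16 were raised in the unnamed (Kcnip4, Lsamp) cells, 45 and 0. These 4 keratins were among those below −0.5, and the part of the cell numbers in their ratios was not tested. None of the 16 genes for keratin-binding proteins and none of the 15 transcription factors passed 0.5 in either direction, and of 11 genes of simple epithelia Cldn3 and Krt23 were below −0.5.

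Reads can be split between near-identical transcripts. Of the 31-base stretches in the last 500 bases of their transcripts, 0 of 470 of Krt8 occur in another listed gene, 1.06% of Krt19 (in Krt17 and Krt42), 10.4% of Krt18 (in Gm5200 and Gm7943) and 9.04% of Krt7 (in 431 genes, Krt4, Krt73 and Krt79 among them), so the levels of Krt7 and Krt18 are less certain than those of Krt8 and Krt19.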

How the data were processed

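Single-cell 3′ libraries of sorted back-skin cells from 1 PADI4 WT and 1 PADI4 cKO sample were used. The deposited matrices hold UMI counts per gene and barcode, which the authors made with Cell Ranger 7.1.0 per the file headers, on mm10 per the labels, with no normalization. All barcodes were kept in the matrices, so cells were selected here by UMIs (2000 to 60000), genes (1000 to 8000), mitochondrial share (20% or less), haemoglobin share (1% or less) and a ribosomal share between the 5th and 99th percentile. Scanpy 1.11.5 (Python 3.11.15) was used for 1000 variable genes, without the 4 keratins, contractile, Padi and cell-cycle genes, 50 components, 15 neighbours and Leiden clustering at resolution 1. A cluster was named where at least 3 markers of a type were 1.5-fold above the other clusters and at 5 CPM or more. Scrublet's automatic threshold did not work in the first library (2 calls, 0.0248%; second library 297, 4.02%), so doublets were kept, and results were repeated without the 5% of cells with the highest score.

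UMIs were summed per group and library. Levels have exact Poisson, shares exact Clopper-Pearson and log2 ratios exact conditional binomial 95% intervals (scipy 1.17.1). Ratios had 0.5 UMI added to each sum, and between sets of cells a gene was called higher or lower only where the ratio without it passed too. Shares of cells were also computed after thinning to 2000 UMIs, and a count of 0 allows up to 3 counts. Calculations were tested on simulated counts. The members, gene lists and named genes (the 4 keratins, Acta2, Tagln, Padi4, members of these lists and the 5 genes most like each keratin) were chosen with earlier results of these data known. Promoters came from RefSeq, with 3 of 4 genes matched, Krt19 not among them. With 1 library per genotype no p-value was computed.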

Additional observations from a re-analysis of the deposited data

Results flagged for a closer look

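The signal set apart for a closer look lay outside the epithelial clusters, in the 24 and 13 cells of the mixed cluster that held Epcam and fewer than 2 collagen UMIs, a division made after their values had been seen. Values are again given for the library labelled PADI4 WT first and that labelled PADI4 cKO second. Krt8 stood at 249.8 CPM (204.3 to 302.4) and 204.6 CPM (149.8 to 272.9) in these cells. Krt18 stood at 299.8 CPM (249.7 to 357.0) and 186.8 CPM (134.6 to 252.5), so that Krt8 and Krt18 UMIs stood at 0.833 and 1.10 to 1, where Krt8 outnumbered Krt18 in the epithelial cells. Krt19 was lower, at 30.9 and 22.2 CPM, and Krt7 was at 114.2 and 13.3 CPM. The cells drew attention because all 3 of Krt8, Krt18 and Krt19 were above their level in the epithelial cells in both libraries. The cells of the cluster that held collagen had 18 Krt8 UMIs, or 51.9 CPM (30.7 to 82.0), and 11 Krt18 UMIs, or 31.7 CPM (15.8 to 56.7), in the first library, also above the epithelial level, and 0 UMIs of either in the second. Krt19 had 0 UMIs in the collagen cells of both.

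Krt8 was found in 95.8% and 92.3% and Krt18 in 87.5% and 76.9% of the Epcam cells, whose median depths of 16440.5 and 16894 UMIs were like those of the epithelial cells. After thinning to 2000 UMIs the shares were 20.8% and 38.5% for Krt8 and 37.5% and 23.1% for Krt18, and no thinned cell held Krt19. Relative to the epithelial cells, Krt8 was 5.82 (5.50 to 6.12) and 6.07 (5.58 to 6.499) higher on the log2 scale, Krt18 7.80 (7.46 to 8.14) and 7.09 (6.56 to 7.57), Krt19 2.34 (1.37 to 3.07) and 2.12 (0.35 to 3.21), and Krt7 3.50 (3.04 to 3.90) and 1.01 (−1.49 to 2.34).

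Of 12 simple-epithelium genes compared, 7 were more than 1 higher in both libraries (Epcam, Cldn3, Cldn4, Cldn7, Elf3, Ehf and Krt23), as were 6.85% of 14944 genes. Epcam is in this list and chose the cells. Of 15 contractile genes 13 were higher, with Acta2 at 1746 and 3785 CPM and Tagln at 612 and 2291 CPM. UMIs of these cells counted towards the minimum a gene needed to be compared. Elf3, Actg2, Lmod1 and Myh11 reached that minimum only with them, and all were called higher. The basal keratins Krt5 and Krt17 were lower, at −2.26 and −1.58 and at −2.66 and −1.24, and Krt14 at −0.40 and −0.27. Of the 7 pericyte and smooth muscle markers, Rgs5, Pdgfrb and Des were at 0 UMIs, whereas Myh11 and Actg2, genes of smooth muscle, were higher in both libraries, and the list summed to 128 and 1054 CPM against 56.8 and 54.9 CPM in the epithelial cells. The Merkel list summed to 2.38 and 71.2 CPM against 7.03 and 8.72, with Atoh1, Isl1 and Sox2 at 0 in the Epcam cells but not Krt20. Of 2 Merkel genes compared, none was called higher. The Schwann list summed to 138 and 89.0 CPM against 8.26 and 6.67, and of 3 genes compared Mbp was higher. None of these cells shared a barcode between the libraries. The part of doublets in these values was not tested.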

How the results depend on the processing

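Of 123 alternatives over 13 results, 101 moved a value by less than its interval, 20 by more, and 2 turned its sign, and the cause was not tested unless stated. No result moved with a minimum of 4000 UMIs, without the 5% of cells with the highest Scrublet scores, without shared barcodes or with free RNA subtracted. The alternatives without shared barcodes, with the Epcam cells and without the cell with the most Krt18 were chosen after seeing the data. The highest group levels (74.5, 101.3, 12.0 and 115.4 CPM for Krt7, Krt8, Krt18 and Krt19, means of both libraries) became 24.2, 26.8, 7.02 and 34.9 CPM at resolution 0.5 and 50.3, 77.5, 6.23 and 73.9 CPM at resolution 2. Without mitochondrial and ribosomal genes, which shrinks the denominator, Krt8 was at 131.6 and Krt19 at 145.2 CPM. With the Epcam cells as a further group, the highest Krt8 and Krt18 levels were 227.2 and 243.3 CPM, the Krt8 difference of the Acta2 and Tagln cells grew from 2.37 to 2.99, and the Krt18 ratio between libraries went from 0.04 to −0.45. Compared with cells of the same groups, mostly of the Tagln group, that difference was 0.55 for Krt7, −0.18 for Krt8, 0.20 for Krt18 and −0.089 for Krt19. Without the cell with the most Krt18 it was 3.53 for Krt18. Joint detection of Krt8 and Krt18 fell from 14.4 to 4.31 times the expected number when expected within groups. In cells with Xist and no Y-linked UMIs the ratio between libraries was −0.96 for Krt8 and −0.52 for Krt19. No paired analysis was possible because each genotype had 1 library.

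With 171 and 179 Krt18 UMIs in all, neighbouring groups under 5 CPM could not be told apart for Krt18 at this depth.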

Other observations

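Of the epithelial clusters, 3 had under 50 cells in a library and were left out of the order of groups. The unnamed (Kcnip4, Lsamp) cells, 45 in the first library and 0 in the second, held 36.4 CPM of Krt7, 1.10 of Krt8, 6.61 of Krt18 and 16.5 of Krt19. The unnamed (Krt1, Stfa1) cells, 185 and 7, held 11.7 and 9.92 CPM of Krt7 and no UMI of the other 3 genes. The unnamed (Krt6a, Wfdc18) cells, 37 and 19, held 11.1 and 4.75 CPM of Krt7, 20.0 and 18.99 of Krt8, 2.23 and 0 of Krt18 and 17.8 and 4.75 of Krt19.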
